A study of Mus musculus with 24 samples.

Results

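The genes described here encode the receptors that bind Wnt proteins at the cell surface. They are the Frizzled receptors Fzd1, Fzd2, Fzd3, Fzd5, Fzd6, Fzd7, Fzd8 and Fzd9 and the co-receptors Lrp5 and Lrp6. They were chosen by symbol, and all 10 were found among the 48321 gene symbols counted. Of these, 9 passed the filter on low counts, which kept 21477 genes, and Fzd5 did not.

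Bulk RNA was sequenced from hippocampal cells of adult C57BL/6 mice, sorted for GFP. Every animal carried Hes5::CreERT2, a tamoxifen-activated Cre recombinase under the control of Hes5, and Rosa26R-CAG::GFP, a reporter that a recombined cell and its descendants express. The animals of the conditional knockout (CKO) were Notch2 flox/flox and those of the wild type (WT) Notch2 wt/wt, so that both genotypes received the driver, the reporter and 5 days of tamoxifen, followed by a chase of 1 day. Animals were pooled, and there were 3 pools of each genotype with 2 libraries per pool, each run on 2 lanes. Libraries 1 and 2 of a pool are numbered as in the sample titles, and the labels do not say how they were made.

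Wnt proteins are secreted lipid-modified ligands that are held by the extracellular cysteine-rich domain of a Frizzled receptor. When the same ligand also engages Lrp5 or Lrp6, the receptor complex recruits Dishevelled and Axin, beta-catenin is no longer degraded, and it activates target genes together with Tcf and Lef factors. Frizzled receptors can also act without Lrp5 or Lrp6, in planar cell polarity and axon guidance. In the adult hippocampus Wnt signalling is known for its part in the maintenance of stem cells and in the formation of neurons.

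The Frizzled genes fall by sequence into Fzd1, Fzd2 and Fzd7, into Fzd5 and Fzd8, into Fzd3 and Fzd6, and into Fzd9 with Fzd4 and Fzd10, which are described among the pathway genes. How alike their coding sequences are bears on how reads were assigned to them. The longest run of identical coding bases shared by members was 47 bases. Fzd1 and Fzd2 shared 1 such run, and Fzd1 and Fzd7 another. The stretch shared by Fzd1 and Fzd2 is shown with its counterpart in 5 other members to make the relation of the subfamilies visible. It was chosen as identical in Fzd1 and Fzd2, so it cannot show which of Fzd2 and Fzd7 is closer to Fzd1. Each sequence is the coding strand, 5′ to 3′, from the GENCODE M21 transcripts on GRCm38, and capitals mark the bases that differ from Fzd1.
Fzd1: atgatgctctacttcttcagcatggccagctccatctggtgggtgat
Fzd2: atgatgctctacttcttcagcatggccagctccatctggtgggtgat
Fzd7: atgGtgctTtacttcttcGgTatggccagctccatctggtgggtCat
Fzd5: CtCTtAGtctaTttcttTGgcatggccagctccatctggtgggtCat
Fzd9: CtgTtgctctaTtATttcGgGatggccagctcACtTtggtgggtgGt
Fzd6: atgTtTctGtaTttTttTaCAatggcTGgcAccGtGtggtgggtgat
Fzd3: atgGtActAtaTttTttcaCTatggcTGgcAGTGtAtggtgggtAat

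These stretches lie in coding exons at chr5:4756331-4756377 (minus strand) for Fzd1, chr11:102605740-102605786 (plus) for Fzd2, chr1:59483974-59484020 (plus) for Fzd7 and chr1:64735597-64735643 (minus) for Fzd5. They lie at chr5:135250029-135250075 (minus) for Fzd9, chr15:39031299-39031345 (plus) for Fzd6 and chr14:65235401-65235447 (minus) for Fzd3. Fzd7 differed from Fzd1 at 5 bases, Fzd5 at 9, Fzd9 at 11, Fzd6 at 13 and Fzd3 at 15. No stretch of 50 bases was shared by any pair of the 10 genes. Fzd1, Fzd2, Fzd5, Fzd7, Fzd8 and Fzd9 each have 1 coding exon, Fzd3 and Fzd6 have 6, and Lrp5 and Lrp6 have 23. Fzd5 overlaps the predicted gene Gm38058 in exons, with which it shared 16.4% of its 50-base stretches, and Fzd6 overlaps Gm26704 (2.12%). The library kit does not mark strand, so reads in the shared parts of these pairs cannot be told apart.

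Each pool had 40366579 to 53984963 reads in genes. Levels are given in CPM, the reads of a gene scaled to a common total of reads in genes with TMM factors. Notch2, the gene targeted in the knockout, stood at 99.1, 146 and 302 CPM in WT pools 1 to 3 and at 65.1, 116 and 121 CPM in CKO pools 1 to 3, and the genotypes overlapped (log2 fold change -0.86, SE 0.45, edgeR adjusted p = 0.790). The floxed part is not named in the labels, so a count over the whole gene checks the deletion only in part. Lists of markers of 12 cell types were summed per pool, and the sums of the genotypes overlapped for all 12. Markers of mature astrocytes (9 of 9 in the tables, 22431 to 22720 CPM in the WT pools and 19067 to 29446 CPM in CKO pools) and of oligodendrocytes (9 of 9, 2383 to 6431 and 3205 to 5588 CPM) were abundant beside those of stem cells (11 of 11, 1706 to 2189 and 2011 to 3047 CPM), and no member of these lists was at 0 in any pool. Such sums are over different genes, are not corrected for length and do not give the share of each cell type. As markers of several cell types were present, the levels below describe the sorted cells together. In such bulk samples fewer cells of a type and less RNA per cell cannot be told apart.

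Among the 10 receptor genes Fzd9, Fzd2 and Fzd1 had the highest levels and Fzd8 and Fzd5 the lowest. Levels were compared between genes per length, as CPM per kilobase of exon. Fzd9 had the highest mean, 10.2 ± 4.56 CPM per kilobase (SD over 6 pools), and was followed by Fzd2 at 6.36 ± 2.72 and Fzd1 at 4.63 ± 1.09 CPM per kilobase. Fzd6, Lrp6 and Fzd3 lay close together at 1.78 ± 1.49, 1.68 ± 0.416 and 1.66 ± 1.29 CPM per kilobase. Fzd7 at 1.16 ± 0.722, Lrp5 at 0.911 ± 1.18, Fzd8 at 0.352 ± 0.452 and Fzd5 at 0.0705 ± 0.110 CPM per kilobase closed the order. The ranges of every pair of neighbours in this order overlapped, so no neighbours were separated beyond the spread of the pools. Wider steps held: Fzd1 was above Fzd3, Fzd7, Fzd8, Lrp5 and Lrp6 in 6 of 6 pools. Fzd9 was the highest of the 8 Frizzled members in 5 of 6 pools, and in WT pool 3 it was Fzd1. This lead did not hold in each library. Fzd9 has 2.29 kilobases of exon and Fzd2 3.66. Fzd9 and Fzd2 stood at 3.80 and 33.1 CPM in library 1 of CKO pool 3. In library 2 of WT pool 1 they stood at 14.4 and 27.4 CPM, so Fzd2 was higher per kilobase in both of these libraries. Fzd4, outside the members, had a mean of 6.21 ± 1.80 CPM per kilobase, close to that of Fzd2, and was above Fzd9 in 1 of 6 pools, WT pool 3.

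**Figure D1:**
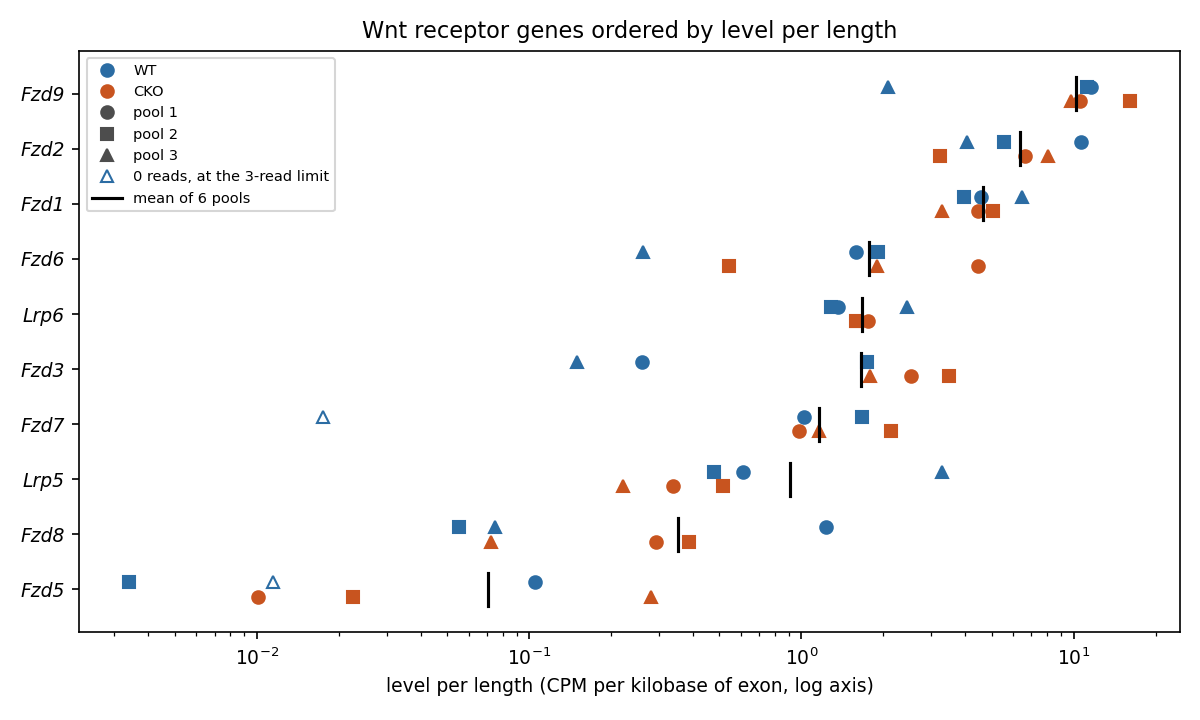
Level per length of each receptor gene (CPM per kilobase of exon, log axis) in the 6 pools, with genes ordered by their mean. Circles, squares and triangles are pools 1, 2 and 3, blue is WT, orange is CKO, open symbols stand at the limit of 3 reads for pools with 0 reads, and the bar is the mean of 6 pools; Fzd9 leads at 10.2 and Fzd5 closes the order at 0.0705 CPM per kilobase.

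The genotypes were compared next, to ask whether the set of Wnt receptors differs between pools labelled Notch2 CKO and WT. None of the 9 tested receptor genes passed the edgeR quasi-likelihood test at an adjusted p of 0.05. The percentage of all tested genes called in this comparison was 0.0%, 0 of 21477, although 1269 genes (5.91%) had an unadjusted p under 0.05. DESeq2 called 129 of 20394 genes (0.633%) and limma-voom 0, and neither called a receptor gene. By edgeR none of the 9 had an unadjusted p under 0.05, and by DESeq2 2 had one, Lrp5 and Fzd3, beside 9.33% of all genes tested. Fzd3 was the 1 tested member with every CKO pool above every WT pool, as in 7.67% of all tested genes, and the pools of 15.8% were separated in either direction. Fold changes were above 0 for 4 members and below 0 for 5, with a median log2 fold change of -0.041, beside a median of -0.059 over all genes tested. A two-sided exact permutation test on log2 CPM was run for single genes as well, and with 3 pools against 3 its smallest possible p is 0.1.

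**Figure D2:**
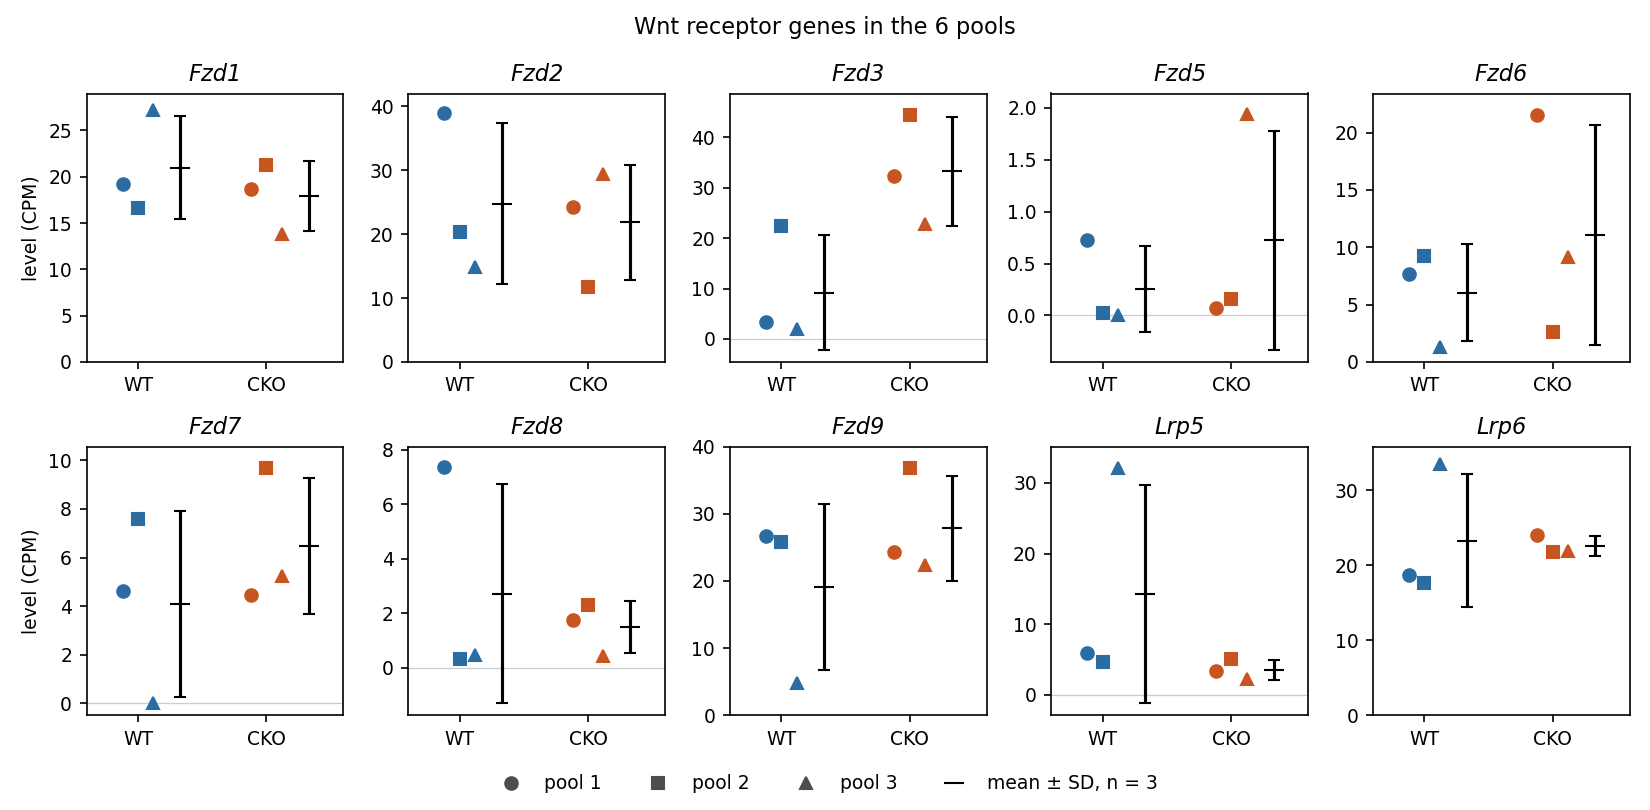
Level (CPM) of each receptor gene in the 6 pools by genotype, with pool 1 as a circle, pool 2 as a square and pool 3 as a triangle, and the mean ± SD (n = 3) beside them. Fzd3 is the gene whose genotypes do not overlap, and the WT pool 3 triangle is the highest WT point for Fzd1, Lrp5 and Lrp6 and the lowest WT point for Fzd2, Fzd3, Fzd5, Fzd6, Fzd7 and Fzd9.

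Fzd1 (chromosome 5, 4753839 to 4758035) encodes a receptor that signals through beta-catenin. It stood at 19.2, 16.6 and 27.2 CPM in WT pools 1 to 3 and at 18.6, 21.3 and 13.8 CPM in CKO pools 1 to 3. The genotypes overlapped, with WT pool 3 highest and CKO pool 3 lowest (log2 fold change -0.23, SE 0.38, edgeR adjusted p = 0.892). Fzd1 spanned less than a 2-fold range over the pools, with a coefficient of variation of 23.5%, close to that of Lrp6 at 24.8% and below the 42.8% or more of the other 8 genes. Its repeat libraries differed more than its pools did, and their values are given after those of Lrp5.

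Fzd2 (chromosome 11, 102604396 to 102608058) encodes a receptor that can bind Wnt5a and act with or without beta-catenin. It stood at 39.0, 20.4 and 14.9 CPM in the WT pools and at 24.3, 11.8 and 29.4 CPM in CKO pools 1 to 3. The highest pool was WT and the lowest was CKO, with the remaining pools interleaved (log2 fold change -0.18, SE 0.52, edgeR adjusted p = 0.938). Without WT pool 1 the log2 fold change was 0.33, so the sign rested on that pool, and it was also above 0 without CKO pool 2 (0.12) and in library 2 alone (0.20).

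Fzd7 (chromosome 1, 59482424 to 59486955) is known as a Wnt receptor of embryonic and adult stem cells. It stood at 4.64, 7.58 and 0 CPM in the WT pools and at 4.46, 9.67 and 5.26 CPM in CKO pools 1 to 3. WT pool 3 had 0 reads of Fzd7 in both of its libraries, which allows a level of up to 0.0793 CPM by the limit of 3 reads, while the other 5 pools held 235 to 432 reads. The remaining WT pools lay within the CKO range (log2 fold change 0.67, SE 1.49, edgeR adjusted p = 0.923). Without WT pool 3 the log2 fold change was 0.074. In that pool 5.12% of all tested genes had 0 reads, against 0.326% to 2.60% in the others.

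Fzd8 and Fzd5, close relatives that can bind Wnt with high affinity, were the least abundant. Fzd8 stood at 7.36, 0.330 and 0.449 CPM in the WT pools and at 1.75, 2.31 and 0.432 CPM in CKO pools 1 to 3. WT pool 1 was high, and the other 5 pools were low and interleaved (log2 fold change -0.86, SE 1.34, edgeR adjusted p = 0.884). Without WT pool 1 the log2 fold change of Fzd8 was 1.94, so its sign rested on that pool, and it was also above 0 under limma-voom with quality weights (0.58). Fzd5 (chromosome 1, 64730558 to 64737751) had 148 reads in all 6 pools together, 99 of them in CKO pool 3 and 37 in WT pool 1. Its levels were 0.730, 0.0235 and 0 CPM in the WT pools and 0.0700, 0.157 and 1.94 CPM in CKO pools 1 to 3, and it was not tested. WT pool 2 had 1 read of Fzd5 and WT pool 3 had 0. Of the reads in the higher pools, 90 of 99 in CKO pool 3 and 36 of 37 in WT pool 1 lay in 1 library. The means of the genotypes, 0.251 ± 0.415 CPM in WT and 0.723 ± 1.06 CPM in CKO (SD, n = 3), differed by less than the SD of the CKO pools.

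Fzd3 (chromosome 14, 65192449 to 65262463) is required for the guidance of axons and, with Fzd6, for planar cell polarity. It stood at 3.32, 22.3 and 1.93 CPM in the WT pools and at 32.4, 44.5 and 22.8 CPM in CKO pools 1 to 3. Every CKO pool was above every WT pool, but WT pool 2 came close to CKO pool 3. Its log2 fold change was estimated at 1.85 (SE 0.92, unadjusted p = 0.0828, edgeR adjusted p = 0.790, exact permutation p = 0.1). DESeq2 gave an unadjusted p of 0.0280 and an adjusted p of 0.435. The log2 fold change was 3.72 without WT pool 2 and 1.37 to 2.08 without any 1 of the other pools. It was above 0 in both libraries, at 2.48 in library 1 and 1.41 in library 2, though within each library the genotypes overlapped. Libraries 1 and 2 of CKO pool 1 gave 8.61 and 53.1 CPM of Fzd3, and those of WT pool 2 gave 13.8 and 32.0 CPM.

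Fzd6 (chromosome 15, 39006034 to 39038188), the partner of Fzd3 in the polarity of hair and of inner ear cells, can also dampen signalling through beta-catenin. It stood at 7.64, 9.23 and 1.27 CPM in the WT pools and at 21.5, 2.62 and 9.17 CPM in CKO pools 1 to 3. CKO pool 1 was the highest and WT pool 3 the lowest, and the others were interleaved (log2 fold change 0.88, SE 0.96, edgeR adjusted p = 0.844). Without CKO pool 1 the log2 fold change was -0.028.

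Fzd9 (chromosome 5, 135248938 to 135251230) is a receptor known for its part in the development of the hippocampus. It stood at 26.6, 25.7 and 4.76 CPM in the WT pools and at 24.3, 36.9 and 22.4 CPM in CKO pools 1 to 3. WT pool 3 was the low pool, and WT pools 1 and 2 lay within the CKO range (log2 fold change 0.55, SE 0.64, edgeR adjusted p = 0.853). Without WT pool 3 the log2 fold change was 0.080. The sum of the 8 Frizzled genes per kilobase followed the same pool, at 31.1, 26.1 and 13.1 in WT and 29.9, 30.9 and 26.3 in CKO pools 1 to 3, with means of 23.4 ± 9.26 and 29.0 ± 2.45 CPM per kilobase (SD, n = 3).

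Lrp6 (chromosome 6, 134446476 to 134566965) is the co-receptor whose phosphorylated tail recruits Axin. It stood at 18.7, 17.6 and 33.5 CPM in the WT pools and at 24.1, 21.8 and 21.9 CPM in CKO pools 1 to 3. The CKO pools lay close together and inside the range of the WT pools (log2 fold change -0.041, SE 0.38, edgeR adjusted p = 0.981), and the sign changed with scaling (0.064 with plain CPM). Its libraries agreed best among the 9 tested members by their widest gap: no pool differed by more than 2-fold between its libraries.

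Lrp5 (chromosome 19, 3584828 to 3686564) is the co-receptor known for its roles in bone mass and in retinal vessels. It stood at 5.96, 4.66 and 32.1 CPM in the WT pools and at 3.29, 5.04 and 2.16 CPM in CKO pools 1 to 3. WT pool 3 was far above the other 5 pools, among which the genotypes overlapped. Its log2 fold change was estimated at -2.03 (SE 0.87, unadjusted p = 0.0516, edgeR adjusted p = 0.790), and DESeq2 gave an unadjusted p of 0.0140 and an adjusted p of 0.355. It was -0.61 without WT pool 3. Per kilobase Lrp6 was above Lrp5 in 5 of 6 pools, and the exception was WT pool 3, with 2.45 for Lrp6 and 3.30 for Lrp5.

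The high level of Lrp5 came from 1 library. WT pool 3 held 46 reads of Lrp5 in library 1 (2.97 CPM) and 1169 in library 2 (58.1 CPM), which is 96.2% of its reads in 1 of 2 repeat libraries. With WT pool 3 represented by library 1 alone, the log2 fold change was -0.39, and by library 2 alone -2.72. A gap between the libraries of WT pool 3 at least as large was seen in 19.8% of the 1590 tested genes of a similar level. Markers of oligodendrocyte precursors (8 of 8 in the tables, none at 0 in any pool, 1778 to 2896 CPM in the WT pools and 1121 to 3265 CPM in CKO pools) were higher in library 2 of WT pool 3 than in any other library, at 4327 CPM. In library 2 of CKO pool 1 these markers stood at 4207 CPM while Lrp5 stood at 4.12 CPM. They were higher in library 2 than in library 1 in every pool, with 1455 CPM in library 1 of WT pool 3. Markers of endothelial cells summed to 25.5 CPM in library 2 of WT pool 3, the 7th highest of 12 libraries. Of the 10 endothelial markers, only 4 had more than 3 reads in every pool, and 4 were at 0 in at least 1 pool. The part of these cells in the level of Lrp5 was not tested.

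WT pool 3 was often the extreme pool. It was the lowest of the 6 pools for Fzd3, Fzd5, Fzd6, Fzd7 and Fzd9 and the highest for Fzd1, Lrp5 and Lrp6. Of all tested genes, which do not include Fzd5, it was the lowest pool for 29.6% and the highest for 24.5%. For Fzd5 it differed from WT pool 2 by 1 read. The label of each sample carries a tag, 20K, 12K and 2K for the WT pools in order and 19K, 4K and 9K for the CKO pools. WT pool 3 has the lowest tag. What the tag stands for is not given in the sources used here, and its part in the levels was not tested.

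**Figure D3:**
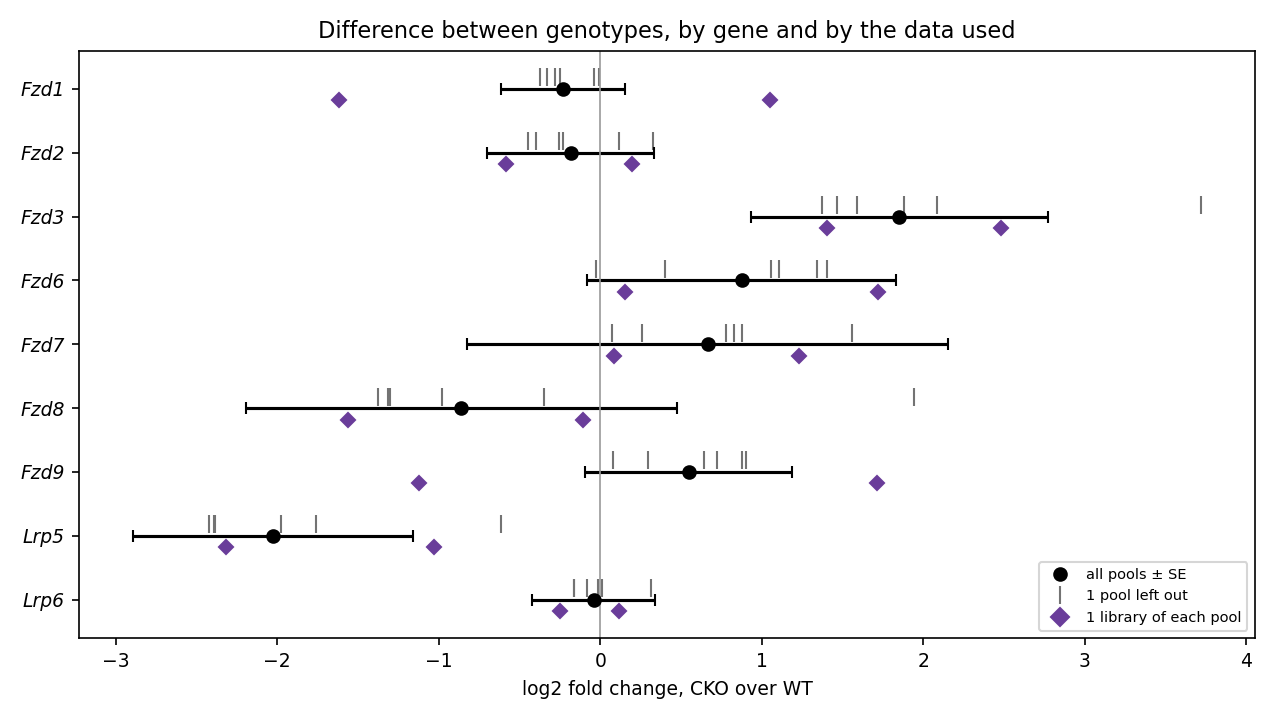
Log2 fold change of CKO over WT for the 9 tested receptor genes. Black points with bars are the fit of all pools ± SE, grey ticks are fits with 1 pool left out, and purple diamonds are fits of library 1 or library 2 alone; the diamonds of Fzd1 lie on opposite sides of 0 (-1.62 and 1.05), as do those of Fzd9 (-1.12 and 1.71).

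The repeat libraries of a pool gave opposite orders of the genotypes for Fzd1. In library 1 Fzd1 stood at 19.6, 19.05 and 63.5 CPM in WT pools 1 to 3 and at 14.5, 14.1 and 4.40 CPM in CKO pools 1 to 3. In library 2 it stood at 17.4, 13.6 and 2.29 CPM in the WT pools and at 21.8, 27.3 and 21.5 CPM in CKO pools. Every WT pool was thus above every CKO pool in library 1 and below every CKO pool in library 2. The labels do not tie together the libraries that share a number in different pools. The results by library for Fzd1 and Fzd9 therefore rest on this numbering. In library 1, 8.77% of tested genes were separated with CKO lower, and in library 2, 6.39% were separated with CKO higher. The log2 fold changes were -1.62 (SE 0.79) and 1.05 (SE 0.76), neither of which passed the edgeR test (adjusted p = 0.758 and 0.984). WT pool 3 had 983 reads of Fzd1 in library 1 and 46 in library 2, the reverse of Lrp5.

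Fzd9 behaved in the same direction. Its reads numbered 926 and 424 in libraries 1 and 2 of WT pool 1, 711 and 382 in WT pool 2, and 119 and 61 in WT pool 3. In the CKO pools they numbered 523 and 863, 264 and 1383, and 89 and 1051. Fzd9 was therefore lower in library 2 in all 3 WT pools and higher in library 2 in all 3 CKO pools. In library 2 alone the pools did not overlap (3.03 to 19.3 CPM in WT, 28.5 to 56.9 CPM in CKO, log2 fold change 1.71, SE 0.72, edgeR adjusted p = 0.984), and in library 1 they did.

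For most members the gaps between libraries were of a size usual for genes of a similar level. The median gap over the pools was larger than that of 41.5% to 62.5% of such genes for Fzd1, Fzd6, Fzd7, Fzd8 and Lrp5, of 75.0% for Fzd3 and 86.5% for Fzd9, and of 20.9% for Lrp6 and 8.13% for Fzd2. The largest gaps of Fzd3, Fzd9 and Fzd1 were each set against the gaps of such genes in the same pool. As large a gap was seen in 0.672% of 1934 such genes for Fzd3 in CKO pool 1. The share was 2.22% of 1980 for Fzd9 in CKO pool 3 and 15.6% of 1918 for Fzd1 in WT pool 3. Each pool was picked for the largest gap of the member, so these shares are smaller than for a pool picked beforehand. Fzd6 (2.62 on the log2 scale, in CKO pool 3) and Fzd8 (3.10, in CKO pool 2) had larger gaps than Fzd3 (2.56). Their gaps were not compared in this way. In 4 of 6 pools the libraries differed by more than 2-fold for Fzd3 and Fzd9, in 3 for Fzd6 and Fzd8, in 2 for Fzd1 and Fzd7, in 1 for Fzd2 and Lrp5, and in none for Lrp6. Lanes of the same library agreed within sampling noise (chi-square per degree of freedom 0.986 to 1.01), so the gaps arose between libraries and not between lanes. Marker sums also differed between the libraries of a pool. In every pool oligodendrocyte precursor markers were higher in library 2, and mature astrocyte markers were higher in library 1. The other marker lists had no direction shared by all pools. The part of these differences in the results of single libraries was not tested.

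**Figure D4:**
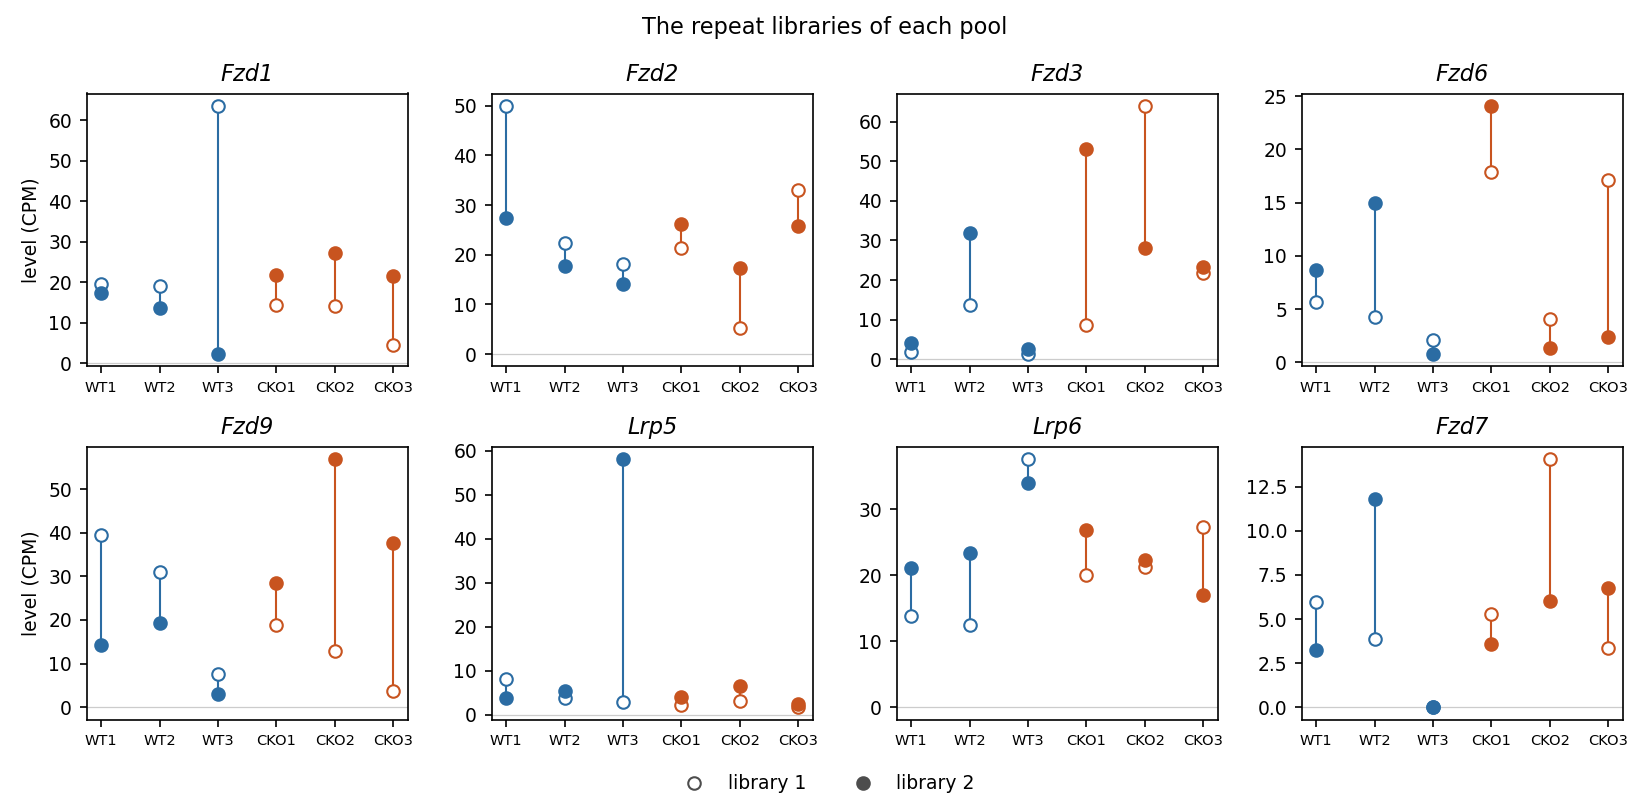
Level (CPM) of 8 receptor genes in library 1 (open circles) and library 2 (filled circles) of each pool, with a line joining the libraries of a pool, blue for WT and orange for CKO. For Fzd1 and Fzd9 the filled circle is below the open one in every WT pool and above it in every CKO pool, and for Lrp5 library 2 of WT pool 3 stands alone at 58.1 CPM.

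The rest of the pathway was described from 9 lists that together hold 109 gene symbols, some of them in more than 1 list. Of these, 107 were found among the symbols counted and 83 were tested. None passed the edgeR test after adjustment. Log2 fold changes were above 0 for 51 and below 0 for 32, with a median of 0.24, beside 47.2% above 0 and a median of -0.059 over all tested genes. An unadjusted edgeR p under 0.05 was reached by 3 genes with higher levels in CKO (3.01% of all tested genes) and 2 with lower levels (2.9%). The pools did not overlap for 9 genes higher in CKO (7.67% of all tested genes) and 1 lower (8.17%).

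Among the Frizzled genes outside the 10 members, Fzd4, the receptor of Norrin, stood at 26.7, 35.9 and 34.0 CPM in the WT pools and at 49.2, 44.5 and 60.4 CPM in CKO pools 1 to 3. The CKO pools were all above the WT pools (log2 fold change 0.67, SE 0.28, unadjusted p = 0.0447, edgeR adjusted p = 0.790), and library 1 alone gave 0.38 and library 2 alone 0.68 on the log2 scale. Fzd10 had 27 reads in all pools together and was not tested. Ndp, which encodes Norrin, stood at 122 ± 18.1 CPM in the WT pools and 117 ± 8.41 CPM in CKO pools (SD, n = 3).

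Of 19 Wnt ligand genes, 8 were tested, 5 with fold changes above 0 and 3 below. Wnt7b and Wnt7a, ligands that signal through beta-catenin, had the highest CPM of the list, not corrected for length, and their pools overlapped. In library 1 alone their log2 fold changes were 1.22 and 1.62, and in library 2 alone -0.15 and -0.093. Wnt7b stood at 71.2 ± 24.3 CPM in the WT pools and 90.1 ± 27.4 CPM in CKO pools, and Wnt7a at 37.9 ± 9.84 and 52.8 ± 16.8 CPM (SD, n = 3). Wnt4 stood at 3.06, 2.92 and 7.96 CPM in the WT pools and at 1.59, 1.14 and 0.687 CPM in CKO pools 1 to 3. All WT pools of Wnt4 were above all CKO pools (log2 fold change -2.02, SE 0.76, unadjusted p = 0.0309, edgeR adjusted p = 0.790), but library 1 alone gave -0.32 and library 2 alone -3.08 on the log2 scale. Of the genes of Wnt secretion, 2 of 3 were tested. Wls, the carrier of Wnt proteins to the membrane, and Porcn, which attaches their lipid, had fold changes on the log2 scale of 0.17 (SE 0.24) and -0.12 (SE 0.40).

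Of 19 secreted modulators, 10 were tested, 6 above 0 and 4 below. Dkk3, a member of the Dickkopf family, had the highest CPM of the list, not corrected for length, at 210 ± 38.6 CPM in the WT pools and 282 ± 66.1 CPM in CKO pools (SD, n = 3, log2 fold change 0.43, SE 0.25), with overlapping pools, and library 1 alone gave 1.13 and library 2 alone -0.19. Rspo2, an R-spondin that stabilises Frizzled receptors at the membrane, stood at 0, 0.306 and 11.8 CPM in the WT pools and 0, 0.873 and 4.81 CPM in CKO pools 1 to 3. Only pool 3 of each genotype exceeded 1 CPM of Rspo2.

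Of 20 symbols listed as co-receptors and receptor regulators, 17 were tested, 12 above 0 and 5 below. Tspan12, the partner of Fzd4 in Norrin signalling, stood at 115, 209 and 295 CPM in the WT pools and 274, 416 and 326 CPM in CKO pools 1 to 3, and Lgr4, a receptor of R-spondins, at 74.7, 149 and 145 CPM and 112, 251 and 241 CPM. The pools overlapped for both genes (log2 fold changes 0.71, SE 0.36, and 0.71, SE 0.40). For Tspan12 library 1 alone gave 1.32 and library 2 alone 0.16, and for Lgr4 0.89 and 0.50. Ror1, a receptor kinase that binds Wnt5a, had an unadjusted p of 0.0288 (log2 fold change -3.59, SE 1.32, edgeR adjusted p = 0.790). Its pools overlapped, at 2.66, 0.188 and 7.82 CPM in the WT pools and 0.298, 0.403 and 0.177 CPM in CKO pools 1 to 3. Znrf3, which removes Frizzled receptors from the membrane and is itself a target gene, stood at 110 ± 28.7 CPM in the WT pools and 83.7 ± 24.0 CPM in CKO pools (SD, n = 3, log2 fold change -0.39, SE 0.32).

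All 7 planar polarity genes were tested, 3 above 0 and 4 below. Vangl1, a membrane protein of the polarity complex, stood at 7.13, 7.58 and 6.05 CPM in the WT pools and at 22.3, 15.9 and 35.4 CPM in CKO pools 1 to 3. The CKO pools were far above the WT pools and did not overlap them. The log2 fold change of Vangl1 was 1.82 (SE 0.45, unadjusted p = 0.00427), it did not pass in edgeR (adjusted p = 0.790), and it passed in DESeq2 (adjusted p = 0.00891). It was 2.86 in library 1, 1.29 in library 2 and 1.505 to 2.06 with any 1 pool left out. Celsr3, an adhesion receptor that guides axons together with Fzd3, stood at 2.84, 4.22 and 26.4 CPM in the WT pools and 2.75, 3.22 and 2.002 CPM in CKO pools 1 to 3. The log2 fold change of Celsr3 was -2.07 (SE 0.93) and -0.41 without WT pool 3. Prickle2 and Celsr2, further polarity genes, had fold changes on the log2 scale of -0.75 (SE 0.53) and -0.36 (SE 0.34), and that of Prickle2 was -0.061 without WT pool 3.

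All 20 genes of cytoplasmic signalling were tested, 11 above 0 and 9 below, and none had an unadjusted edgeR p under 0.05. Csnk1a1 and Gsk3b, the kinases that mark beta-catenin for degradation, stood at 232 ± 29.6 and 171 ± 33.6 CPM in the WT pools and at 211 ± 25.9 and 244 ± 75.2 CPM in CKO pools (SD, n = 3). Csnk1g1, one of the membrane-bound kinases that phosphorylate Lrp6, stood at 13.1, 25.6 and 16.6 CPM in the WT pools and at 32.7, 35.3 and 26.4 CPM in CKO pools 1 to 3. Its pools did not overlap (log2 fold change 0.77, SE 0.38, unadjusted p = 0.0777 in edgeR and 0.0464 in DESeq2, edgeR adjusted p = 0.790), and the estimate was -0.10 from library 1 and 1.601 from library 2. Dvl1, which Frizzled receptors recruit, had a log2 fold change of -0.57 (SE 0.37), with -1.28 in library 1 and 0.57 in library 2.

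All 13 genes listed as nuclear partners of the pathway, co-repressors among them, were tested, 8 above 0 and 5 below. Ctnnbip1, whose product keeps beta-catenin from Tcf factors, stood at 12.4, 9.18 and 10.7 CPM in the WT pools and at 29.6, 31.4 and 22.7 CPM in CKO pools 1 to 3. The pools did not overlap. The log2 fold change of Ctnnbip1 was 1.37 (SE 0.36, unadjusted p = 0.00583), it did not pass in edgeR (adjusted p = 0.790), and it passed in DESeq2 (adjusted p = 0.00924). It was 0.35 in library 1 and 1.96 in library 2. Tcf7l2 and Tle4, a transcription factor and a co-repressor of the pathway, had fold changes on the log2 scale of 0.031 (SE 0.29) and -0.21 (SE 0.33), and Tle1 of -0.94 (SE 0.66), or -0.016 without WT pool 1.

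Of 15 feedback and target genes, 12 were tested, 8 above 0 and 4 below, and none had an unadjusted p under 0.05 in edgeR or DESeq2. Ccnd1, a cyclin and a target in many tissues, stood at 244 ± 127 CPM in the WT pools and 187 ± 55.5 CPM in CKO pools, and Tnfrsf19 at 154 ± 39.3 and 166 ± 42.0 CPM (SD, n = 3). Lgr5, a target that marks stem cells in several epithelia, stood at 0.651, 6.10 and 0.370 CPM in the WT pools and at 9.19, 9.62 and 1.69 CPM in CKO pools 1 to 3, with overlapping pools (log2 fold change 1.52, SE 1.21, edgeR adjusted p = 0.814). Without WT pool 2 the log2 fold change of Lgr5 was 3.79, and without any 1 of the other pools it was 1.02 to 2.01.

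**Figure D5:**
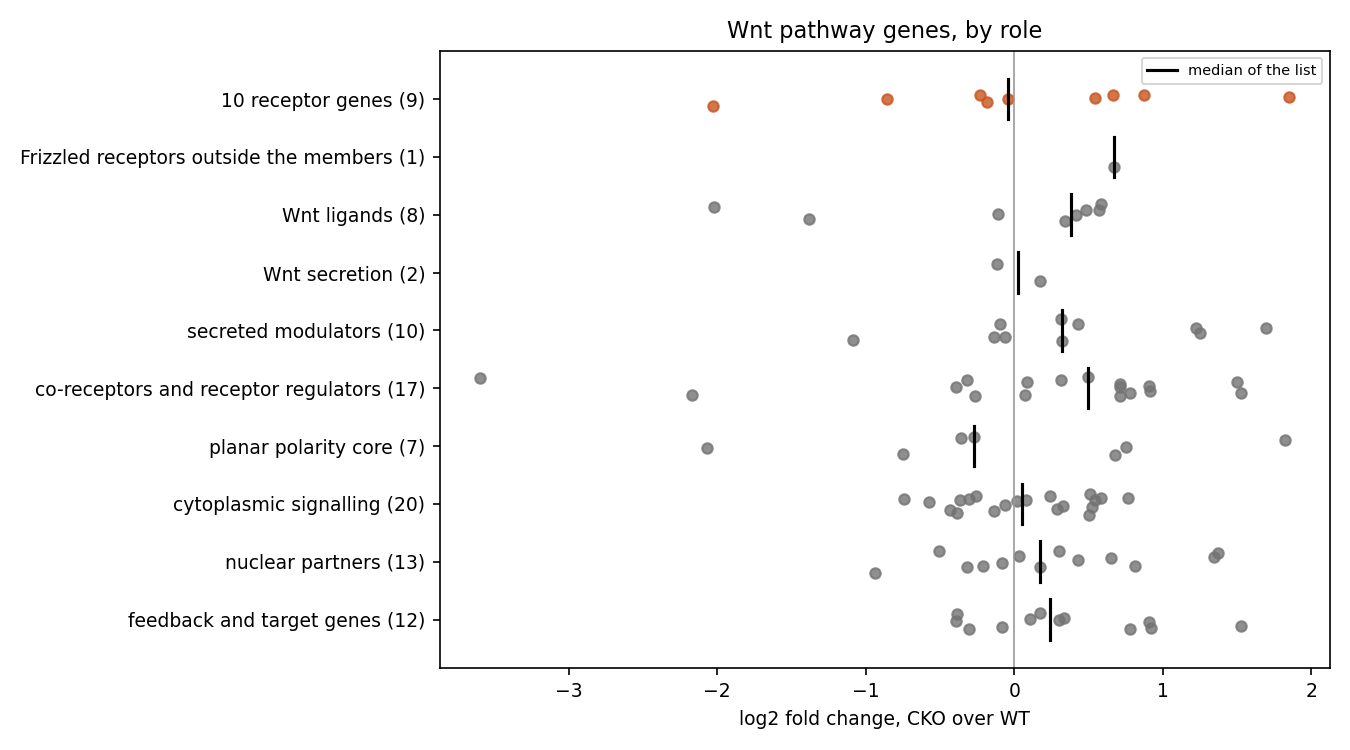
Log2 fold change of CKO over WT for the tested genes of each pathway list, with the number tested in parentheses, 1 point per gene, and a bar at the median of the list; the 10 receptor genes are in orange. The receptor genes spread from -2.03 (Lrp5) to 1.85 (Fzd3) around a median of -0.041, and no gene shown passed the edgeR test after adjustment.

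The genes whose levels followed those of Fzd9 most closely over the 6 pools were Mrps5 (Pearson r 0.997, Spearman rho 1), Usp32 (0.995 and 0.943), Snhg17 (0.994 and 0.829), Zbtb49 (0.994 and 0.943) and Armt1 (0.993 and 0.943), out of 9639 genes compared on log2 CPM. All 5 shared the low WT pool 3 and the high CKO pool 2 with Fzd9. These are descriptions over 6 points that share pools and depth, picked as the closest of many. Without WT pool 3 and CKO pool 2, the pools farthest from the median of Fzd9, r was 0.981 for Mrps5 over the remaining 4 pools and 0.357 to 0.839 for the others, so the likeness of those 4 genes rested largely on these pools.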

How the data were processed

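RNA-seq of sorted GFP-positive hippocampal cells was analysed from the tables of raw read counts per gene that the authors deposited (24 tables, 1 per run and lane). The submitters' processing notes name Bowtie2, HTSeq and the build GRCm38, and versions, the annotation and the strand setting are not given in the sources used here. Per the labels' protocols, Smart-Seq2 and the Nextera XT kit were used. The 4 runs of each pool (2 libraries, 2 lanes) were summed. Summary lines that name no gene entered neither totals nor tests: reads outside genes were 16.0% to 35.3%, unaligned reads 11.2% to 21.7% and ambiguous reads 2.51% to 3.43% per pool. Unaligned reads were highest in WT pool 3. Reads outside genes were highest in CKO pool 2, which was also the highest pool for Fzd3, Fzd7 and Fzd9. The part of these reads in the levels was not tested.

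The comparison of genotypes used edgeR 4.0.16 under R 4.3.3 (filterByExpr, TMM, robust quasi-likelihood F test, Benjamini-Hochberg adjusted p under 0.05 over all 21477 genes kept), with 3 pools against 3. The labels do not say whether pools shared animals, so p-values reflect the spread of these pools only, whose common biological coefficient of variation was 0.725. CPM was computed from the deposited counts with TMM-adjusted library sizes. The permutation test used log2(CPM + 0.5). Lengths and positions are those of GENCODE M21, matched by symbol for 96.2% of tested genes. Reads carry no molecular identifiers, so the limit of 3 reads covers counting error only. The edgeR, DESeq2 and limma steps were tested on simulated data. Alternatives were RLE or plain CPM scaling, no filter, DESeq2 1.42.0, limma-voom (limma 3.58.1), a replicate block, either library alone, each pool left out and, for levels, the longest transcript as length.

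The genes named are the 10 receptors, Notch2, from each pathway list the 2 members with the highest mean CPM and the member with the smallest unadjusted p in each direction (mean of at least 1 CPM), and the 5 genes most like Fzd9. The members and lists were chosen with earlier results of these data known. The position and sequence of Fzd8 are not reported here.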

Additional observations from a re-analysis of the deposited data

Results flagged for a closer look

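For Fzd1 the ratio of library 2 to library 1 went opposite ways in the genotypes. On the log2 scale it was -0.17, -0.47 and -4.52 in WT pools 1 to 3 and 0.58, 0.93 and 2.17 in CKO pools 1 to 3, a difference of 2.95 between the means of CKO and WT. For Fzd9 it was -1.43, -0.67 and -1.21 in WT and 0.59, 2.09 and 3.15 in CKO pools, a difference of 3.05. An exact two-sided permutation test gave p = 0.1 for each gene, the smallest possible with 3 against 3 pools. All WT ratios were below 0 and all CKO ratios above 0 for 2 of 9 tested members and for 1.14% of all tested genes. The pattern was picked out after the values were seen, and why libraries of 1 pool differ was not tested. The pattern also rests on the numbering of the libraries, which the labels do not tie between pools.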

How the results depend on the processing

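The number of genes called was 0 in edgeR and limma-voom under every setting run and 129 in DESeq2. The fold changes of the 9 tested members took 144 values under alternative settings, of which 16 changed sign and 0 crossed the threshold. In library 2 alone the log2 fold change of Fzd1 was 1.05 and that of Fzd2 0.20, and in library 1 alone that of Fzd9 was -1.12 and that of Lrp6 0.12. Under limma-voom with quality weights Fzd8 was at 0.58 and Lrp6 at 0.23, and with plain CPM scaling Lrp6 was at 0.064. With 1 pool left out the values ran from -0.45 to 0.33 for Fzd2, from -0.028 to 1.41 for Fzd6, from -1.38 to 1.94 for Fzd8, from -0.16 to 0.31 for Lrp6 and from -0.16 to 0.78 for the median of the members. With WT pool 3 represented by 1 of its libraries, a setting chosen after seeing the data, Fzd1 was at 0.49 by library 2. Lrp6 was at 2.45 CPM per kilobase with the longest transcript as its length. For the pools that share a number, deviations from the genotype means correlated at 0.0337, -0.00649 and -0.0287, so the numbers show no pairing. With the number as a replicate block, edgeR called 0 genes (889 at an unadjusted p under 0.05, against 1269), Fzd8 was at 0.15 and Lrp6 at 0.023. Fzd5, with 148 reads in all pools, was not tested, and the spread between pools and libraries limits the other members. A member past the edgeR threshold was found under no setting, with adjusted p-values from 0.355 (Lrp5 in DESeq2) upward over all tools.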
